A study of Mus musculus with 14 samples.

Results

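The genes described here are Satb1, Cd8a, Cd4, Ifngr1 and Arhgef1, which carry the identity and the signalling of thymocytes and other lymphocytes. They are 5 of the 1380 genes that could be named on the arrays, and each was represented by a single spot. They were chosen from these data by spot intensity and detection in thymus against brain and by the ratio of mutant over control in each mouse, so those values are given as a description and without a test. In the RefSeq annotation of GRCm38.p6 the genes lie at chr17:51736187-51833290 (Satb1), chr6:71373427-71379171 (Cd8a), chr6:124864693-124888247 (Cd4), chr10:19591949-19610229 (Ifngr1) and chr7:24902986-24926594 (Arhgef1). Which part of a transcript each spotted cDNA covers is not given in the files.

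The series compared brain and thymus of mutants lacking miR-34a with control RNA on spotted cDNA arrays with 2 colours. All mice, mutant and control, were males of the C57BL/6 background aged 17 weeks. The mutants carried the genotype given as mir-34a minus, and how the allele was made is not stated in the labels. Brain RNA of mice 1 to 3 and thymus RNA of mice 1 to 4 was hybridised on 2 arrays per mouse with the dyes exchanged, which makes 6 brain and 8 thymus arrays. On every array the second channel held RNA pooled from control mice, from the organ in question, listed as 4 animals in the sample labels and as 6 in the labelling protocol. No control animal was hybridised alone, so the spread among controls was not measured. Both organs were homogenised whole, and fewer cells of a type and less RNA per cell cannot be told apart in such RNA.

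Developing T cells pass through the thymus as cells without either coreceptor, then with both CD4 and CD8, and leave with only one of them. The coreceptors bind the constant part of MHC molecules, CD8 that of class I and CD4 that of class II, and bring the kinase Lck to the T cell receptor. SATB1 is a nuclear protein that organises chromatin loops and is abundant in thymocytes, where it takes part in the switching of lineage genes. IFNGR1 is the ligand-binding chain of the receptor for interferon gamma and is found on most cell types, and ARHGEF1 is an exchange factor that couples G proteins of the G12 family to the GTPase RhoA, mainly in blood cells.

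The mature strand of the microRNA absent from the mutants is shown because it defines the mutation, with bases 2 to 8, the seed that pairs with target mRNAs, in capitals. RefSeq (GRCm38.p6) places it on the plus strand at chr4:150068473-150068494.
miR-34a-5p: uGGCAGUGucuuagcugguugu
No probe on the arrays bore the name of this microRNA gene, so its loss was not measured by them.

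The 250 bases before the start of 4 of the genes are shown as context for the spots that were brighter in thymus than in brain. They come from RefSeq (GRCm38.p6), read in the direction of the gene, and capitals mark the GC box GGGCGG on either strand. The windows lie at chr17:51833291-51833540 on the minus strand for Satb1, and on the plus strand at chr6:71373177-71373426 for Cd8a, chr10:19591699-19591948 for Ifngr1 and chr7:24902736-24902985 for Arhgef1.
Satb1: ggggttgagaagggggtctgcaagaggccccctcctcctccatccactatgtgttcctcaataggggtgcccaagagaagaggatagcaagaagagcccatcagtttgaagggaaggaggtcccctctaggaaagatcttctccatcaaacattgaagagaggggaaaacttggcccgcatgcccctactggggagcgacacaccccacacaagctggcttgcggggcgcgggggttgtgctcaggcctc
Cd8a: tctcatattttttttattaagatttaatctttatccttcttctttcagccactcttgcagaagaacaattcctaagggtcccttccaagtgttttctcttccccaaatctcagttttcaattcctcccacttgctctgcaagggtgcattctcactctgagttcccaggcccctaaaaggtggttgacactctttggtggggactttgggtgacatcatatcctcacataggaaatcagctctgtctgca
Ifngr1: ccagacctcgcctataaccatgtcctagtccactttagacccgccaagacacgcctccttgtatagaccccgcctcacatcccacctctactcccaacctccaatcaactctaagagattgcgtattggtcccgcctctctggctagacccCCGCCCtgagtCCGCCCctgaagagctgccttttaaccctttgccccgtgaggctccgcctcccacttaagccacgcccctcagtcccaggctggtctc
Arhgef1: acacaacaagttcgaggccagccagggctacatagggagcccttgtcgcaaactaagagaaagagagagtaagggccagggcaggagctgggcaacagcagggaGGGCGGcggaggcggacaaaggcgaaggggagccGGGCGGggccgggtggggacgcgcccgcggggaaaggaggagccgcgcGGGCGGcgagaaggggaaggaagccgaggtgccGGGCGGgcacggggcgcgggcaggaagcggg
The table holds 5 windows for Satb1 and 2 for Arhgef1, and only the one at the annotated start of the gene was searched. Cd4, on chromosome 6 like Cd8a, is named only. GC made up 58.0% of the Satb1 window, 42.8% of that of Cd8a, 59.2% of that of Ifngr1 and 70.8% of that of Arhgef1, with a median of 52.4% over all 32851 windows in the table. Ifngr1 held 2 GC boxes and Arhgef1 held 4, whereas 32.7% of all windows held at least 1. Another 6 motifs, those of factors known from lymphocytes, were searched on both strands and occurred in none of these 4 windows. The RUNX motif TGTGGT was present in 14% of all windows. The ETS motif GGAAGT was present in 19.7% and the motif of TCF and LEF factors, CTTTGA, in 13.8%. The E-box of E proteins, CAGCTG, was present in 13% and the motif of GATA factors, AGATAA, in 10% of all windows. The STAT motif TTCNNNGAA was present in 7.0%. A match is a description of letters, and a missing match says only that these letters are not in the window.

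For thymus replicate 1 the tissue field reads brain, against the title and the name of the pool, and the array was taken as thymus. Signals were low, and thymus arrays were dimmer than brain arrays: 56.3% to 94.4% of probes were detected on a brain array and 7.96% to 85.4% on a thymus array, where detected means at least 2 background SDs above the background in at least 1 channel. Spots flagged in the scanner files made up 0.812% to 10.7% of a brain array and 9.32% to 72.4% of a thymus array. Replicates 6 and 8 of thymus stood apart, with the highest and the lowest detection of that organ. Results of the 5 genes that rest on them are given with and without them, while those of other genes and the correlations are given with all arrays. A mouse value is the mean of both dye-swapped arrays, and where one of these arrays is left out the other stands for the mouse.

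Intensities of the organs were compared as the mean log2 signal of both channels after quantile normalisation between arrays, in which a mouse is the replicate and spots flagged in the scanner files are left out. The pool channel repeats 1 control RNA per organ on all its arrays. The SDs and p-values of these intensities therefore do not measure the spread among mice alone. In the moderated test of limma with Benjamini-Hochberg adjustment, 138 of 8384 tested probes differed at an adjusted p under 0.05, 71 higher (0.847%) and 67 lower (0.799%) in thymus, 1.65% in all. With the mouse as a replicate block, 13 did, and with flagged spots kept 329 of 18161 did (1.81%). With the mutant channel alone, 101 probes passed. Leaving out a mouse gave 8 to 87 probes, and the lowest was without mouse 2. Without thymus replicate 6 there were 372 and without replicate 8 there were 47. The median difference of the tested probes was 0.15 in favour of thymus with flagged spots left out and 1.69e-05 with them kept, so differences of the 5 genes are also given less the median.

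Satb1, Cd8a, Ifngr1 and Arhgef1 had brighter spots in thymus than in brain, and Cd4 did not. With flagged spots kept, which gives all mice a value, 4 of 5 had every thymus mouse above every brain mouse, where 8.88% of the tested probes did. With flagged spots left out, 3 of the 4 genes with at least 2 mice in each organ did, where 26.3% of 8384 tested probes did. The genes were chosen by this contrast, so nothing is read from these counts. The median difference of the 5 genes was 1.08 on the log2 scale with flagged spots kept.

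**Figure D1:**
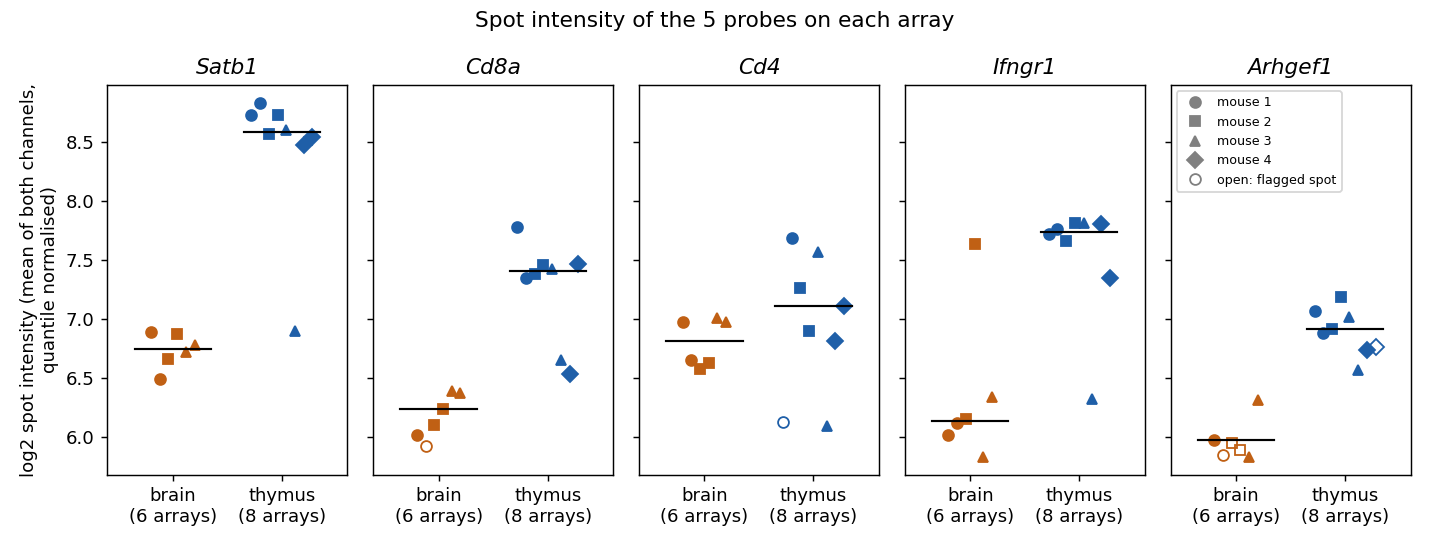
Log2 spot intensity of each of the 5 probes on every array, averaged over both channels after quantile normalisation, by organ. A symbol is an array, its shape gives the mouse, open symbols are flagged spots and bars are medians over spots that were not flagged. Satb1 had medians of 6.75 in brain and 8.59 in thymus, while the ranges of Cd4 overlapped.

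Satb1, the chromatin organiser, showed the widest separation. In brain its log2 intensity was 6.69, 6.77 and 6.75 in mice 1 to 3, and in thymus it was 8.78, 8.65, 7.75 and 8.50 in mice 1 to 4. All thymus mice lay above all brain mice, and mouse 3 was the lowest in thymus. The means were 6.73 ± 0.04 (SD, n = 3) in brain and 8.42 ± 0.46 (SD, n = 4) in thymus, a difference of 1.68 or 3.21-fold on this scale and of 1.53 less the median of all tested probes. Over all tested probes, 99.8% had a smaller difference. The low value of mouse 3 came from 1 of its arrays: replicate 6 gave 6.90 and its dye-swapped partner, replicate 5, gave 8.60. The other 7 thymus arrays lay well above every brain array and close together. Without replicate 6 the difference was 1.90, without replicate 8 it was 1.68 and without replicate 1 it was 1.70.

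The difference of Satb1 between organs was about equal in the channels of mutants and of the pool. Mutant channels differed by 1.66 between thymus and brain and pool channels by 1.71. Channel values were computed from the normalised mean intensity and the log2 ratio. Their likeness thus restates that the mean ratios of the organs, given below, were similar. The spot was detected on all 6 arrays of brain and on all 8 of thymus, with no flagged and no saturated spot. In the green scan it stood at 1.83 to 3.34 times the local background in brain and at 3.35 to 4.90 times in thymus.

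Cd8a, the alpha chain of the CD8 coreceptor, was brighter in thymus in all mice that gave values. Its log2 intensity was 6.17 and 6.38 in the brains of mice 2 and 3, and 7.57, 7.42, 7.04 and 7.0 in the thymi of mice 1 to 4. Mouse 1 gave no brain value because 1 of its spots was flagged, and with that spot kept it was the lowest of all, at 5.97. The organs did not overlap. Means were 6.27 ± 0.15 (SD, n = 2) in brain and 7.25 ± 0.28 (SD, n = 4) in thymus, 0.98 apart and 0.83 apart less the median. With flagged spots kept the difference was 1.08.

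Cd8a was detected more often in thymus than in brain. It was detected on 2 of 6 brain arrays, both of mouse 3, and on 8 of 8 thymus arrays. Those 2 brain arrays had the highest detection of that organ, at 94.4% and 89.7% of all probes. The median Cd8a signal in the green scan was 1.76 times the background in brain and 2.12 times in thymus. Within thymus the 2 arrays of mouse 4 lay far apart, at 6.53 on replicate 7 and 7.46 on replicate 8, and replicate 6 was low at 6.65, against 7.42 on its partner. Without replicate 6 the difference between organs was 1.08, and without replicate 8 it was 0.86.

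Cd4, the coreceptor for MHC class II, did not separate the organs. Its log2 intensity was 6.81, 6.60 and 6.99 in the brains of mice 1 to 3, and 7.08, 6.83 and 6.96 in the thymi of mice 2 to 4. The thymus values lay within or just above the range of brain. Means were 6.80 ± 0.19 (SD, n = 3) in brain and 6.96 ± 0.12 (SD, n = 3) in thymus, 0.16 apart and 0.0027 apart less the median. Of all tested probes 50.4% had a smaller difference, so the Cd4 spot stood at the middle of the tested probes.

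Single thymus arrays of Cd4 spread more than the mice. They ran from 6.09 on replicate 6 to 7.68 on replicate 2, with a median of 7.11, while brain arrays ran from 6.58 to 7.0. On replicate 1 the spot was flagged and its red signal was 1.02 times the background, the weakest red signal of that spot on any array. Replicate 2, the dye-swapped array of the same thymus RNA, had the brightest Cd4 spot of all. Without replicate 6 the difference between organs was 0.40, without replicate 8 it was 0.11 and without replicate 1 it was 0.34. The Cd4 spot was detected on 5 of 6 brain arrays and on 6 of 8 thymus arrays, so detection did not set the organs apart either. It was weak in thymus, with a median signal of 1.70 times the background in the red scan and 1.87 times in the green scan. In brain these were 2.38 and 2.18 times. Of the thymocyte markers among the 5 genes, Satb1 and Cd8a were brighter in thymus, a contrast by which the genes were chosen, and Cd4 was not. What RNA the Cd4 probe binds in brain was not tested.

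Ifngr1, the receptor chain for interferon gamma, was also brighter in thymus. In brain its log2 intensity was 6.07, 6.90 and 6.08 in mice 1 to 3, and in thymus it was 7.74, 7.74, 7.07 and 7.57 in mice 1 to 4. The organs did not overlap, although mouse 2 was high in brain and mouse 3 low in thymus. Means were 6.35 ± 0.47 (SD, n = 3) in brain and 7.53 ± 0.32 (SD, n = 4) in thymus, 1.18 apart and 1.03 apart less the median. The size is uncertain, as the brain spot was detected on 3 of 6 arrays and the difference ran from 0.78 to 1.97 over the settings of the background correction. Both deviating mice rested on a single array. Brain replicate 4 gave 7.64 where the other brain arrays gave 5.83 to 6.34, and thymus replicate 6 gave 6.32 where its partner gave 7.81. Without mouse 2 the difference was 1.38, without thymus replicate 6 it was 1.37 and without replicate 8 it was 1.24.

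The high Ifngr1 value of brain came from the pool channel of replicate 4 alone, at 9.27, where that channel gave 5.75 to 6.21 on the other brain arrays. In mutant channels the organs differed by 1.4, and in pool channels by 0.96, where the ranges overlapped because brain mouse 2 reached 7.71. The Ifngr1 spot was detected on 3 of 6 brain arrays and on 8 of 8 thymus arrays. Satb1, Cd8a and Ifngr1 were thus detected on all thymus arrays, as were 605 or 3% of all 20160 probes. Cd8a and Ifngr1 also had no more than 3 brain arrays with detection, which held for 9 probes in all, or 0.0446%. These genes were chosen partly by detection, so nothing is read from these shares.

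Arhgef1, the exchange factor for RhoA, was brighter in thymus but close to its background in brain, and also in the red scan of thymus. With flagged spots kept its log2 intensity was 5.91, 5.92 and 6.07 in the brains of mice 1 to 3 and 6.98, 7.05, 6.79 and 6.75 in the thymi of mice 1 to 4. The organs did not overlap, and the values within each organ lay close together. Means were 5.97 ± 0.09 (SD, n = 3) and 6.89 ± 0.14 (SD, n = 4), a difference of 0.92. With flagged spots left out, only mouse 3 gave a brain value, at 6.07, and the spot was not tested in that setting. The difference was then 0.87, or 0.71 less the median, with 0.94 without thymus replicate 6 and 0.82 without replicate 8. It was detected on 1 of 6 brain arrays, replicate 6, on which 89.7% of all probes were detected. The Arhgef1 spot was detected on 7 of 8 thymus arrays, and flagged on 3 brain arrays and on thymus replicate 8. In brain its median signal was 1.41 times the background in the red scan and 1.44 times in the green scan. In thymus it was 1.45 times in the red scan and 1.95 times in the green scan.

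**Figure D2:**
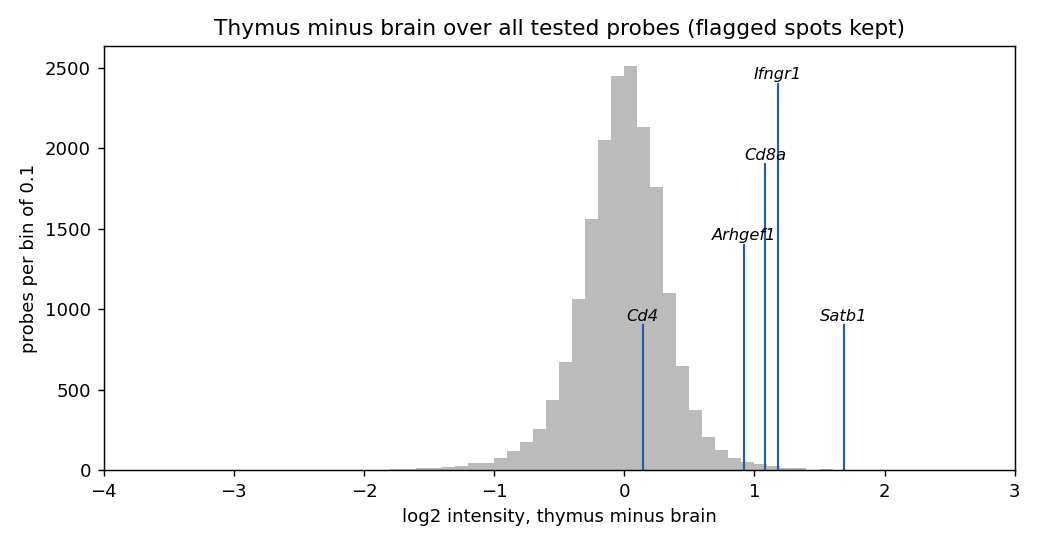
Number of tested probes by their difference in log2 intensity, thymus minus brain, in bins of 0.1 with flagged spots kept. Lines mark the 5 genes (their height has no meaning): Cd4 at 0.14 lies in the bulk of the probes, and Arhgef1 at 0.92, Cd8a at 1.08, Ifngr1 at 1.18 and Satb1 at 1.68 lie in the upper tail.

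A similar pattern was present without quantile normalisation, when the signal over background of a spot was divided by that of the median spot of its array. This division is itself a scaling between arrays. The median spot stood at 1.45 to 2.36 times the background in red scans of brain and 1.10 to 1.70 times in thymus. Before the division the organs overlapped for every gene and scan except Satb1 in the green scan. Arhgef1 in the red scan then ran from 1.10 to 1.90 in brain and from 1.19 to 2.13 in thymus. After the division, Satb1 in the green scan ran from 1.0 to 1.49 in brain, with a median of 1.10. In thymus it ran from 1.30 to 3.63, with a median of 2.40. For Arhgef1 it ran from 0.678 to 1.01 in brain and from 1.04 to 1.39 in thymus, without overlap in either scan. The Arhgef1 spot was thus weaker than the median spot of its array in nearly all brain scans and stronger in all thymus scans. Cd8a ran from 0.742 to 1.02 in brain and from 1.18 to 1.76 in thymus in the red scan, without overlap there, while in the green scan thymus replicate 7, at 0.959, lay within the range of brain. Cd4 ran from 1.09 to 1.55 in brain and from 0.843 to 1.66 in thymus in the red scan, with full overlap. Ifngr1 had medians of 0.904 in brain and 1.55 in thymus in the green scan, with 1 brain array, replicate 4, at 3.45 and above every thymus array.

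On thymus replicate 6 the spots of Satb1 and Ifngr1 were near the level of brain. Its raw Satb1 signal in the green scan was 3.48 times the background, much as on replicate 5 with 3.43 times. The median spot stood at 2.67 times the background in that scan, against 1.48 times on replicate 5. In the red scan the Satb1 spot itself was lower on replicate 6, at 2.14 times the background against 3.71 times, and so was that of Ifngr1, at 1.63 against 2.13 times. Relative to the median spot, Satb1 in the green scan was at 1.30 on replicate 6 and at 2.32 on replicate 5. The part of the raised signal of the whole array in these low values was not tested.

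**Figure D3:**
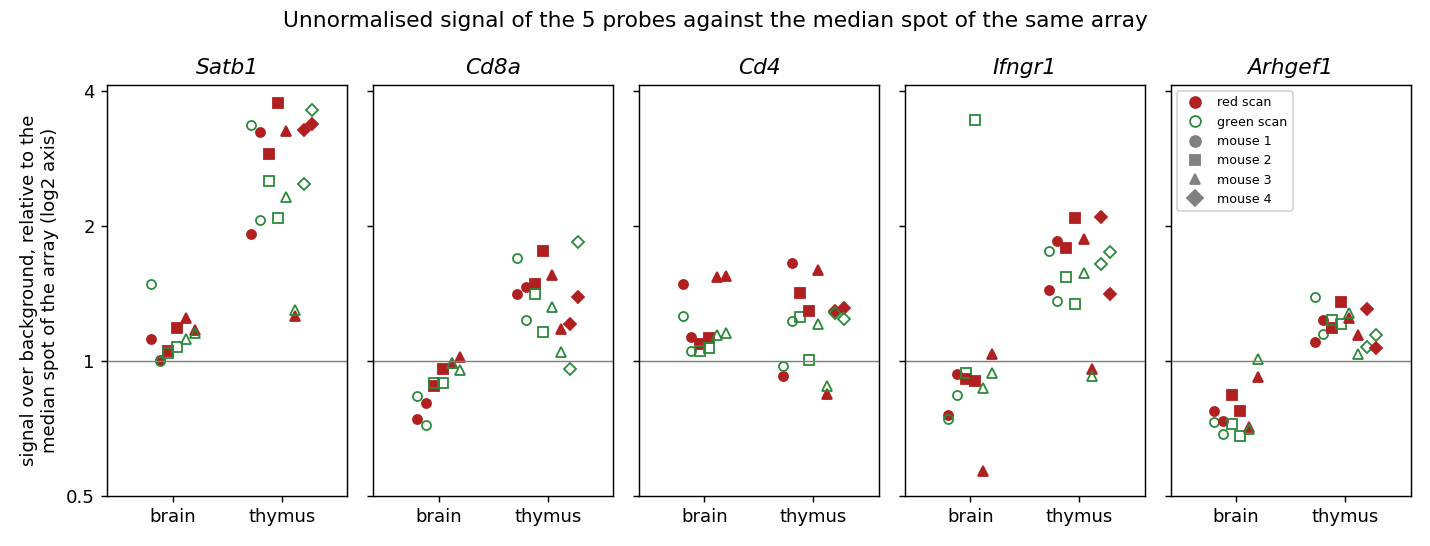
Signal over local background of each spot divided by that of the median spot of the same array and scan, on a log2 axis. This division scales the arrays, and no quantile normalisation was applied. Filled red symbols are the red scan, open green symbols the green scan, and shapes give the mouse. Satb1 reached 3.76 in the red scan of thymus against at most 1.24 in brain, and Cd4 lay at similar heights in both organs.

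The second question was whether the mutants differed from the control pool of the same organ. In limma with Benjamini-Hochberg adjustment, 0 of 17591 tested probes of brain (0%) and 0 of 5422 of thymus (0%) passed an adjusted p of 0.05, with 783 and 273 probes at an unadjusted p under 0.05. None of the 5 genes was among the called probes of either organ, as none was called. All ratios below are log2 of mutant over pool. Of the 3 genes with a value in all thymus mice, Satb1 alone lay above 0 in each of them, as 8.77% of 1813 such probes did, and of the 3 with a value in all brain mice none did, where 14.8% of 15608 did.

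Satb1 in thymus lay slightly above the pool in all mice. The ratios were 0.14, 0.06, 0.07 and 0.10 in mice 1 to 4, a mean of 0.09 ± 0.04 (SD, n = 4). Single arrays ran from 0.01 to 0.26 with a median of 0.06, and all 8 were above 0. Both dye orientations gave nearly the same mean, 0.10 with the mutant in Cy3 and 0.09 with it in Cy5. Without replicate 6 the mean was 0.11 and without replicate 8 it was 0.08. The size depended on the processing: it was 0.36 with median centring within arrays in place of loess, and 0.13 with a normexp offset of 10. In the authors' deposited table it was 0.62 after centring on the median. That table also differs in background correction and foreground, so the part of centring in this value was not tested.

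In brain the Satb1 ratios were 0.44, 0.08 and -0.06 in mice 1 to 3, a mean of 0.15 ± 0.26 (SD, n = 3). Mouse 1 stood apart, and its value came from replicate 1, at 0.87, while its partner gave 0.02. On replicate 1 the green spot, which held the mutant RNA, had a mean pixel value of 264 and a median of 185, a ratio of 1.43 that exceeded 99.4% of the spots on that array. With the pixel median as foreground that array gave 0.03, the mouse gave 0.03 and the organ mean became -0.04. The height of the brain ratio of Satb1 thus rested on 1 spot with a pixel mean far above its median.

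Cd8a in thymus divided the mice. The ratios were 0.16, 0.23, 0.03 and -0.48 in mice 1 to 4, a mean of -0.02 ± 0.32 (SD, n = 4). Mouse 4 was the only mouse below 0, and both of its dye-swapped arrays were low, at -0.46 and -0.50. With the pixel median as foreground mouse 4 gave -0.89, from -0.83 and -0.94. On replicate 7 the green spot, which held the mutant RNA, had a mean pixel value of 177 and a median of 137. The background there was 121, and the ratio of mean to median, 1.29, exceeded 97.3% of the spots on that array. Without mouse 4 the mean was 0.14, without replicate 6 it was 0.06 and without replicate 8 it was -0.01. Both arrays of mouse 4, replicates 7 and 8, share 1 RNA extract and include the array with the lowest detection of thymus, and the part of RNA quality in this value was not tested. In brain Cd8a gave 0.09 and 0.05 in mice 2 and 3, and the spot was detected too rarely to be tested.

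Cd4 in thymus gave ratios of 0.16, 0.18 and 0.13 in mice 2 to 4, a mean of 0.15 ± 0.03 (SD, n = 3). The mice lay close together, but their arrays did not. With the mutant in Cy3 the mean was -0.05 ± 0.14 (SD, n = 3 arrays) and with the mutant in Cy5 it was 0.34 ± 0.14 (SD, n = 4 arrays). The dye orientations thus differed by more than the size of the mean ratio. Leaving out replicate 6 gave a mean of 0.21, and leaving out replicate 8 gave 0.13. In brain Cd4 showed the same order of dyes, -0.12 in Cy3 and 0.16 in Cy5 over 3 arrays each, and ratios of 0.09, -0.00045 and -0.02 in mice 1 to 3. The brain mean was 0.02 ± 0.06 (SD, n = 3).

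**Figure D4:**
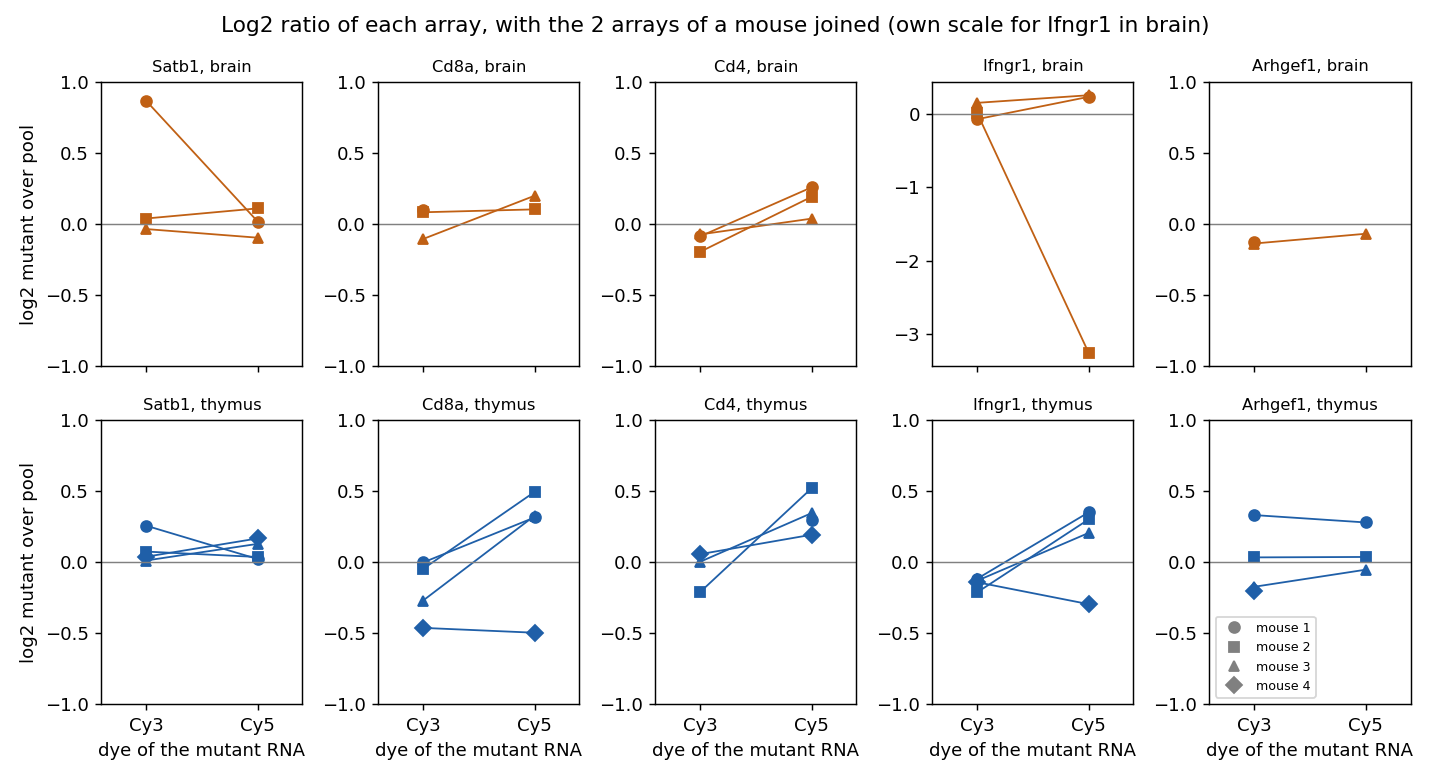
Log2 ratio of mutant over pool on each array, by gene, organ and the dye of the mutant RNA, with the dye-swapped arrays of a mouse joined by a line. Lines that rise from left to right in every mouse, as for Cd4 in brain, show higher ratios with the mutant in Cy5, and Cd8a of thymus mouse 4 lies at -0.46 and -0.50. Ifngr1 in brain has a scale of its own, down to -3.27.

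Ifngr1 in thymus gave ratios of 0.12, 0.05, 0.04 and -0.22 in mice 1 to 4, a mean of -0.0033 ± 0.147 (SD, n = 4). All 4 arrays with the mutant in Cy3 were below 0 and 3 of 4 with it in Cy5 were above, with means of -0.15 and 0.14. As with Cd8a, mouse 4 was the lowest. The mean was 0.04 without replicate 6 and 0.02 without replicate 8. In brain the ratios were 0.09, -1.62 and 0.21 in mice 1 to 3, a mean of -0.44 ± 1.02 (SD, n = 3). The value of mouse 2 came from replicate 4, at -3.27, while its partner gave 0.02. On replicate 4 the green spot, which held the pool, had a mean pixel value of 552 and a median of 152, a ratio of 3.63 that exceeded 99.8% of the spots on that array. With the pixel median as foreground the array gave -0.21, mouse 2 gave -0.16 and the organ mean became 0.05. The low brain ratio of Ifngr1 and the high brain intensity of mouse 2 thus came from the same spot.

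Arhgef1 in thymus gave ratios of 0.31, 0.04 and -0.11 in mice 1 to 3, a mean of 0.08 ± 0.21 (SD, n = 3). Mice differed more than dyes: mouse 1 gave 0.33 and 0.28 on its arrays, and mouse 2 gave 0.04 on both. Without replicate 6 the mean was 0.10 and without replicate 8, where mouse 4 gave a value from replicate 7, it was 0.0072. In brain only mouse 3 gave a value, -0.10.

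**Figure D5:**
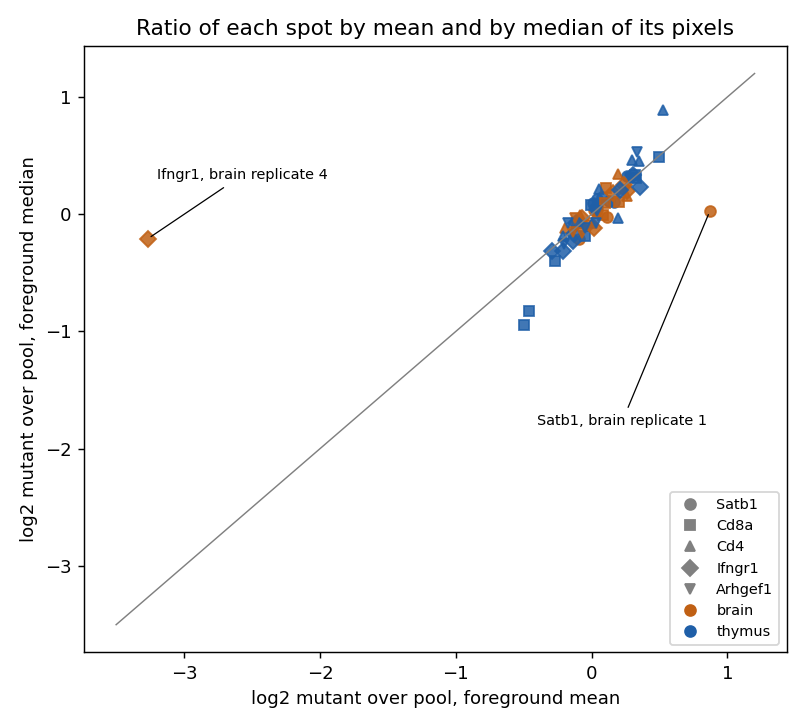
Log2 ratio of mutant over pool of every member spot computed from the mean of its pixels (horizontal) and from their median (vertical), with the line of equality. Satb1 on brain replicate 1 (0.87 by the mean, 0.03 by the median) and Ifngr1 on brain replicate 4 (-3.27 and -0.21) lie farthest from the line.

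The profiles of the genes over organs and mice were compared as a description. Over the 7 mouse values of both organs, with flagged spots kept, Pearson's r of log2 intensity was 0.95 between Satb1 and Cd8a, 0.96 between Satb1 and Arhgef1 and 0.93 between Satb1 and Ifngr1. Cd4 stood apart from the rest, with r from 0.30 against Ifngr1 to 0.60 against Arhgef1. These values share arrays, normalisation and the organ difference by which the genes were chosen. Among 486 named probes detected in both organs, the closest to Satb1 were Pltp, a phospholipid transfer protein (r = 0.993), Card10 (r = 0.978) and the RNA-binding Hnrnpab (r = 0.972). Pltp was also the closest to Arhgef1 (r = 0.972), and Rmnd5a, a subunit of a ubiquitin ligase, was the closest to Cd8a (r = 0.991). The closest to Ifngr1 were the ribosomal protein gene Rplp2 (r = 0.983) and Nfkbia, the inhibitor of NF-kappaB (r = 0.969), and the closest to Cd4 was Katna1, a microtubule-severing enzyme (r = 0.934).

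Other genes of these pathways were thinly covered. Of 248 genes on 6 lists of lymphocyte signalling, 28 besides the 5 genes were on the arrays and 16 were tested between the organs. By limma with Benjamini-Hochberg adjustment 0 of 16 passed, where 1.65% of all tested probes did, and 8 of 16 had an unadjusted p under 0.05, where 20.2% of all tested probes did. The difference was above 0 for 14 of 16 and for 67.2% of all tested probes, and the median was 0.27 against 0.15. Testing required values from 2 or more mice of each organ, which removed listed genes with too few unflagged thymus spots. All tested probes passed the same filter, and nothing is read from these counts. For the ratio of mutant over pool 26 were tested in brain and 14 in thymus, and none was called.

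The listed genes named here differed between the organs by -0.22 to 0.76 on the log2 scale, without subtraction of the median of 0.15. Nfkbia, of cytokine signalling, had a log2 intensity of 6.51 ± 0.22 (SD, n = 3) in brain and 7.26 ± 0.23 (SD, n = 4) in thymus, a difference of 0.76 (limma adjusted p = 0.0671). On the same list Nfkbib, a related inhibitor, differed by 0.50 and the cytokine Lta by 0.19. Zbtb7b, the factor of the CD4 lineage, differed by -0.22. Fcgr2b, the inhibitory Fc receptor, differed by 0.76 (limma adjusted p = 0.176), Cd52 by 0.43 and Cd96 by 0.22. Of T cell receptor signalling, the phosphatase Ptprc differed by 0.17 and the phospholipase Plcg1 by 0.05. None of these passed the adjusted threshold. On the interferon gamma list only Socs1 was present besides Ifngr1, and it was not tested between organs.

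Markers of other cell types were checked beside the thymocyte markers. Of the 22 thymocyte markers listed, Satb1, Cd8a, Cd4 and Ly6d were on the arrays, and Ly6d was detected on 2 of 6 brain and 1 of 8 thymus arrays. Beyond the 5 genes, the only marker past the threshold was Stmn2 of neurons, with 8.47 ± 0.30 (SD, n = 3) in the brains and 6.85 ± 0.09 (SD, n = 4) in the thymi, a difference of -1.62 (limma adjusted p = 0.00263). The other tested neuron markers did not follow it: Slc17a7 differed by 0.34 and Sncb by 0.12 in favour of thymus, without passing. The neuron markers Syt1, Camk2b and Syp were not tested, as fewer than 2 thymus mice gave a value. Their brain means were 7.93, 7.47 and 7.33, and Syp gave 6.56 in 1 thymus mouse. All were detected on 6 of 6 brain arrays, as were 28.7% of all probes. In thymus they were detected on 2, 2 and 1 of 8 arrays. Tested markers of other immune cells gave values above 0 that did not pass either. The macrophage markers Csf1r and C1qa differed by 0.80 (limma adjusted p = 0.194) and 0.28, and the B cell marker Fcgr2b by 0.76, as given above. The part of B cells, macrophages or stroma in the intensities of Ifngr1 and Arhgef1 was not tested.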

How the data were processed

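Expression in brain and thymus of miR-34a-minus mice was measured on 14 spotted cDNA arrays with 2 colours, with 20 µg of total RNA per labelling, per the labels' protocols. Per the file headers, the deposited files hold, without normalisation, foreground and background intensity of 20205 spots (20160 probes) and the percent of pixels above background or saturated. The authors' value table, treated as a score because some values exceed a log ratio's range, equalled the log2 ratio of background-subtracted medians plus 1 constant per array for 99.7% to 99.9% of rows (tolerance 0.01), in the direction of mutant over pool. The origin of these constants is unknown, so its columns were centred on their medians; it served as an alternative, without the 429 values beyond 20.

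Foreground means were corrected with normexp (offset 50), which pulls differences of dim spots toward 0, and normalised by loess (span 0.3) in limma 3.58.1 under R 4.3.3. Flagged spots (flag -50) were left out, ratios were turned to mutant over pool, and both arrays of a mouse, with dyes exchanged, were averaged. Intensities were quantile normalised between arrays. A ratio was tested where a share of 0.5 or more of the arrays of its organ detected the probe and 2 or more mice gave a value. Organs were compared where that share was reached in at least 1 organ and 2 or more mice of each gave a value. Cd8a and Arhgef1 reached it in thymus alone. Tests used lmFit and eBayes, ratios against 0 and organs against each other. The number of mice, 3 and 4, limits the precision. The pool is 1 control sample, and its channel enters every mouse intensity. No arrays held identical values, and the procedure was tested on simulated data.

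Probes were named by RefSeq accession (961 probes; Cd4, Ifngr1 and Arhgef1) or by a synonym of 1 gene (492; Satb1 and Cd8a) in a RefSeq table of GRCm38.p6. Mice 1 to 3 gave both organs, so the pairing is by animal, following the labels (digits in the identifiers of mice 3 and 4 are exchanged in file names); the correlations of their deviations from each organ's mean were -0.0162, -0.0019 and -0.0185. Named are the 5 members, up to 4 tested genes of smallest p per list, listed genes past the threshold, and up to 3 probes of the most similar profile. Some listed genes are not reported here. Members and lists were chosen with earlier results of these data known. Alternatives changed background correction, foreground, normalisation, filters, dyes and arrays left out.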

Additional observations from a re-analysis of the deposited data

Results flagged for a closer look

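Of 24 groups of member values over the arrays of an organ, 5 held an array far from the others by Dixon's criterion, which chance meets in about 1 of 20 groups. The Satb1 ratio of brain replicate 1, at 0.87, and the Ifngr1 ratio of brain replicate 4, at -3.27, come from spots with bright pixels. They gave 0.03 and -0.21 with the pixel median. The Ifngr1 intensity of brain replicate 4, at 7.64, is the same spot. The Satb1 intensity of thymus replicate 6, at 6.90, and its Ifngr1 intensity, at 6.32, were both measured on the thymus array with the highest detection.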

How the results depend on the processing

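The direction of the intensity differences of Satb1, Cd8a, Ifngr1 and Arhgef1 was the same in every alternative run. Satb1 ranged from 1.2 without background correction to 2.18 with an offset of 10, Cd8a from 0.60 to 1.57, Ifngr1 from 0.78 to 1.97 and Arhgef1 from 0.57 to 1.65, so their order changed (Arhgef1 exceeded Cd8a with an offset of 10, and Cd8a exceeded Ifngr1 in the pool channel), while Cd4 ranged from -0.0047 to 0.40. The Satb1 ratio of thymus was above 0 in 19 of 19 alternatives, from 0.07 to 0.62. Ratios of both signs occurred in thymus for Cd8a (-0.19 to 0.16), Ifngr1 (-0.15 to 0.30), Cd4 (-0.05 to 0.53) and Arhgef1 (-0.04 to 0.51), with 0.53 and 0.51 from the authors' deposited table, and in brain for Ifngr1 (-0.92 to 0.28), Satb1 (-0.04 to 0.29), Cd4 (-0.12 to 0.16) and Arhgef1 (-0.27 to 0.06). Cd8a in brain stayed above 0 (0.03 to 0.19). The 138 probes that differed between organs became 82 without background correction, 276 with the foreground median, 329 with flagged spots kept, 13 with the mouse as a replicate block, 8 to 87 with a mouse left out, 372 without thymus replicate 6 and 47 without replicate 8, and 85 where 1 array sufficed for a mouse, which was chosen after seeing the data. With both replicates 6 and 8 left out, also chosen after seeing the data, there were 151. For the ratio of brain, 1 probe passed with the foreground median and 1 with the mutant in Cy5 only, and 0 to 1 with a mouse left out; for that of thymus it was 0 to 1 with a mouse left out. The causes were not tested. Low signal over background limits the values of Cd8a, Ifngr1 and Arhgef1 in brain, those of Cd4 in thymus and those of Arhgef1 in the red scan of thymus.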
